A study of Mus musculus with 4 samples.

Results

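The clustered protocadherins were taken from the deposited expression table by gene symbol, as every row whose symbol was Pcdha, Pcdhb or Pcdhg followed by an isoform number or a C-type number. The rule found 58 genes with 58 transcripts among 24063 genes with 33072 transcripts. They comprised 14 genes of the alpha cluster, 22 of the beta cluster and 22 of the gamma cluster. All lie on the plus strand of mouse chromosome 18 (build mm10), the alpha cluster from 36930285 to 37187660, the beta cluster from 37264998 to 37521419 and the gamma cluster from 37661945 to 37841872.

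The libraries came from melanotropes of the pituitary intermediate lobe and corticotropes of the anterior lobe, which both produce the hormone precursor pro-opiomelanocortin. Both were sorted as GFP-positive cells from POMC-EGFP mice of strain C57B6 once the lobes had been dissected apart, so that all animals carried the same transgene and the sort selected cells by its fluorescence. Each cell type had 2 libraries of RNA depleted of ribosomal RNA, sequenced as paired 50-base reads. No age, sex or number of animals was given, and nothing stated that replicates came from separate animals or sorts, so the p-values measure the spread between these libraries, which may be technical.

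Clustered protocadherins are cadherin-like adhesion proteins of the cell surface, best known from neurons, where each cell shows a combination of isoforms that bind the same isoforms on another membrane. In the alpha and gamma clusters each isoform begins in an exon of its own, which encodes the outer and membrane-spanning parts, and is spliced to constant exons that all isoforms of the cluster share. Beta genes have a single exon each and no shared part. Most isoforms are chosen promoter by promoter with the help of CTCF and cohesin and are silenced by DNA methylation, while the C-type isoforms (Pcdhac1, Pcdhac2, Pcdhgc3, Pcdhgc4 and Pcdhgc5) are under separate control.

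This gene structure decides what the deposited values measure. The values were FPKM, read fragments scaled to transcript length and library depth, counted for each transcript by itself, so that reads on the 3 shared exons entered the value of every isoform of the alpha or of the gamma cluster. The lowest member of a cluster bounds those reads from above, and this upper bound came to 72.7% or more of the reads of any alpha transcript and 61.6% or more of those of any gamma transcript. The 14 alpha values are therefore not independent of each other, and neither are the 22 gamma values. For these clusters a further value was computed, the FPKM of an isoform's own exon above the lowest member of the cluster in the same library, which is a lower bound on the level of that exon. Levels below are FPKM rescaled between libraries unless they are called own-exon levels, and fold changes are melanotrope over corticotrope on the log2(FPKM + 1) scale.

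The libraries carried the markers of their labels, with 6 of 6 melanotrope markers (Pax7, Pcsk2 and Drd2 among them) higher and 5 of 5 corticotrope markers (Crhr1 and Avpr1b among them) lower in melanotropes. Genes of other cell types differed as well. Over all genes tested 18.9% were called higher and 18.3% lower in melanotropes, the background for every count here. Of 13 genes of other anterior-lobe hormone lineages, 12 were tested and all 12 were lower in melanotropes, with summed levels of 14.6 and 62.7 in melanotrope and 5870 and 5637 in corticotrope libraries. Of 12 neuronal genes 9 were tested, 5 higher and 2 lower, and their summed level was 66.8 to 70.5 in melanotropes and 43.0 to 47.7 in corticotropes. The 5 higher were Rbfox3, Gad2, Camk2a, Oxt and Tubb3, and the 2 lower were Slc17a6 and Slc17a7. Gad2 was at 18.7 and 21.2 FPKM in melanotropes and 3.33 and 3.34 FPKM in corticotropes. Slc32a1, the vesicular GABA transporter, was not tested and was listed at 0 in both melanotrope libraries. Of 12 genes of posterior lobe, glia and stem cells 6 were tested, 4 higher and 1 lower, with summed levels of 51.5 to 58.8 and of 37.8 to 41.5. Summed levels of 8 immune genes were 20.01 to 25.0 in melanotropes and 6.19 to 8.85 in corticotropes (6 of 7 tested higher), and of 7 genes of fibroblasts and pericytes 15.7 to 18.8 and 9.13 to 10.6 (2 higher and 1 lower of 4 tested). Those of 7 endothelial genes were 4.18 to 6.23 in melanotropes and 13.1 to 19.6 in corticotropes, 0 higher and 3 lower of 4 tested. Called lower but under 1 FPKM in both melanotrope libraries were Avpr1b, Neurod1, Tshb, Pou1f1, Ghrhr, Gnrhr, Foxl2, Dlk1, Nr5a1, Slc17a6, Emcn and Rgs5. They passed the filter for testing (1 FPKM in at least 2 libraries) through corticotropes alone. Rax, Sox9, Oxt, Csf1r, Cx3cr1, Tyrobp and Lum, called higher, passed through melanotropes alone. The filter fixed the direction of these genes. None of the marker genes was at 0 in all 4 libraries, and the part of such cells in the protocadherin results was not tested.

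The comparison of melanotropes with corticotropes asked how the isoforms of this family differ between a pair of hormone cells that share their main product. Transcripts of the alpha cluster were about 1.5 times as abundant in melanotropes, those of the gamma cluster were at much the same level in both cell types, and beta genes went both ways, mostly higher in melanotropes. Alpha members summed to 93.3 and 89.96 FPKM in melanotrope libraries, against 61.4 and 58.1 FPKM in corticotrope libraries. Beta members summed to 50.7 and 57.8 FPKM in melanotropes, against 43.4 and 42.8 FPKM in corticotropes. Gamma members, in which shared reads are counted 22 times, summed to 762 and 912 FPKM in melanotropes, against 782 and 818 FPKM in corticotropes. Only in the gamma cluster did the summed values of the cell types overlap. In bulk libraries a larger share of cells with a transcript and more of it per cell cannot be told apart.

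Of the 58 members 54 passed the filter of at least 1 FPKM in at least 2 libraries, and 23 were called higher and 2 lower in melanotropes at an adjusted p of 0.05 (limma, Benjamini-Hochberg over 13046 genes). Over all genes tested, 18.9% were called higher and 18.3% lower, so calls in either direction were common. The alpha cluster held 14 higher and 0 lower of 14 tested, the beta cluster 9 higher and 2 lower of 18, and the gamma cluster 0 and 0 of 22. Median log2 fold changes were 0.52 in alpha, 0.35 in beta and 0.07 in gamma, beside 0.00 over all genes tested. No member reached a 2-fold difference on the log2(FPKM + 1) scale, where 8.88% of all genes tested were called at 2-fold. All directions are relative to the median gene, since the deposited columns had nearly equal sums: without rescaling the median log2 fold change of all genes was -0.42, the alpha cluster held 0 calls (median 0.12), the beta cluster 4 higher and 5 lower, and all 22 gamma members were called lower (median -0.40), where 73.9% of all genes were called, 7.14% higher and 66.8% lower.

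**Figure D1:**
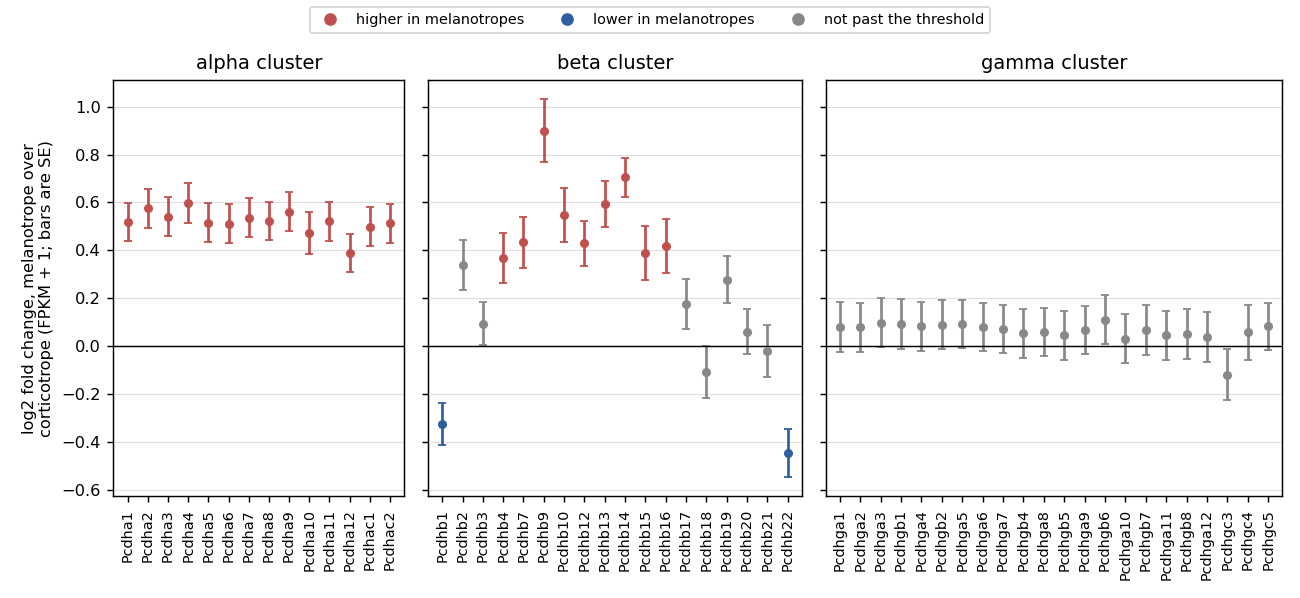
Log2 fold change, melanotrope over corticotrope, of the 54 members tested, in gene order within each cluster; bars are the standard error from limma and the colour gives the call at an adjusted p of 0.05. The 14 alpha members sit together between 0.39 and 0.60, the 22 gamma members between -0.12 and 0.11, and the beta members spread from -0.45 to 0.90.

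In the alpha cluster every member was higher in both melanotrope libraries than in both corticotrope libraries, where 35.7% of all genes tested lay apart in that direction and 35.4% in the other. Pcdhac2, the second C-type isoform and the member with the highest level, was at 7.71 and 7.50 FPKM in melanotropes, against 5.24 and 4.83 FPKM in corticotropes (log2 fold change 0.51, SE 0.08, adjusted p = 0.00549, limma). The other C-type isoform, Pcdhac1, was at 6.47 and 6.24 FPKM in melanotropes and 4.32 and 4.09 FPKM in corticotropes. Among the isoforms chosen by promoter, Pcdha9 was at 7.38 and 7.37 FPKM in melanotropes and 4.86 and 4.48 FPKM in corticotropes. These levels differ little from member to member, and the reads on the shared exons enter every one of them.

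Pcdha4 had the largest fold change of the cluster, with 6.90 and 6.54 FPKM in melanotropes and 4.20 and 3.99 FPKM in corticotropes (log2 fold change 0.60, SE 0.08, adjusted p = 0.00309, limma). Pcdha2 was at 6.58 and 6.18 FPKM in melanotropes and 4.04 and 3.87 FPKM in corticotropes, and Pcdha3 at 6.27 and 6.02 FPKM against 3.995 and 3.83 FPKM. All 3 encode isoforms from the start of the cluster, and their libraries of one cell type lay closer together than the cell types did. Pcdha10 was at 7.28 and 6.71 FPKM in melanotropes and 4.95 and 4.58 FPKM in corticotropes, and without melanotrope replicate 1 it was not called. Pcdha12 was at 6.78 and 6.68 FPKM in melanotropes and 5.02 and 4.80 FPKM in corticotropes, the smallest log2 fold change of the cluster at 0.39 (SE 0.08, adjusted p = 0.0130, limma), and without either melanotrope replicate it was not called. The remaining 12 alpha members were called without any 1 library.

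Set apart from the shared exons, the alpha isoforms were more uneven. The lowest alpha member in all 4 libraries was Pcdha1, which set the bound on the shared exons at 11.1 and 10.8 FPKM in melanotropes, against 7.23 and 6.96 FPKM in corticotropes. Its ratio of 1.54 is that of Pcdha1 itself and no further measurement. Own-exon levels above that bound summed to 19.2 and 17.6 FPKM in melanotropes and 14.3 and 11.5 FPKM in corticotropes. In each library this sum exceeded the bound on the shared exons. With even coverage, isoforms that were all spliced to the shared exons would not give such an excess. Own-exon levels are therefore levels of reads on an exon, not of spliced isoforms, and the source of the excess was not tested. The melanotrope libraries had the higher own-exon sums, which were spread over 13 isoforms. Any reads on the own exon of Pcdha1 were taken off with the bound, and their amount is not known. Directions and shares of alpha own exons, here and below, therefore hold only for what lies above that bound.

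By its own exon Pcdhac2 was the leading alpha isoform, at 3.89 and 3.83 FPKM in melanotropes and 3.03 and 2.45 FPKM in corticotropes. It made up 20.2% and 21.8% of the own-exon sum in melanotropes and 21.2% and 21.3% in corticotropes. Its share lay within 20.2% to 21.8% in all 4 libraries, while its level was higher in melanotropes. In melanotropes Pcdha9 came next, while in corticotropes Pcdha12 and Pcdha10 stood above it. Pcdha9 had own-exon levels of 3.06 and 3.42 FPKM in melanotropes and 2.14 and 1.63 FPKM in corticotropes. Pcdha4 had 1.98 and 1.60 FPKM in melanotropes, against 0.690 and 0.544 FPKM in corticotropes, and its share of the own-exon sum was 10.3% and 9.09% in melanotropes and 4.84% and 4.72% in corticotropes. Pcdha4 thus took about double the share in melanotropes, and the libraries of the cell types did not overlap. Alpha isoforms share up to 23.4% of the 50-base stretches of their own exons with another member (median 14.7%). In Pcdha4 the shared part was 18.6%, so that reads could be split between copies.

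Above the bound set by Pcdha1, Pcdha12 went the other way by its own exon. It was at 1.59 and 1.78 FPKM in melanotropes and 2.39 and 2.23 FPKM in corticotropes. Its share of the own-exon sum was 8.29% and 10.1% in melanotropes and 16.7% and 19.3% in corticotropes. Pcdha2 stood at 1.38 and 0.927 FPKM in melanotropes and 0.395 and 0.343 FPKM in corticotropes by its own exon. Its melanotrope libraries lay above the corticotrope ones, as they did for 9 of the 14 alpha isoforms, with 1 lower and 4 overlapping. The 4 include Pcdha1, which is at 0 by construction. Over all genes tested 35.7% lay apart as higher and 35.4% as lower. Own-exon levels were 2.67 and 1.81 FPKM in melanotropes and 2.23 and 1.72 FPKM in corticotropes for Pcdha10, and 0.408 and 0.278 against 0.0977 and 0.0475 FPKM for Pcdha3. Pcdhac1 had 1.01 and 0.912 FPKM in melanotropes and 0.904 and 0.733 FPKM in corticotropes, and only in Pcdha10 of these 3 did the cell types overlap. In Pcdhac1 the gap between 0.912 and 0.904 FPKM was smaller than the largest rounding error, 0.018 to 0.027 FPKM in the alpha cluster.

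When the alpha and gamma rows were replaced by own-exon levels and the whole table was fitted again, 6 alpha isoforms passed the filter, and 3 were called higher and 0 lower in melanotropes (limma; at an unadjusted p under 0.05, 4 higher and 1 lower). The background there was 18.9% called higher and 18.3% lower. The 3 were Pcdha4 (log2 fold change 0.79, SE 0.11, adjusted p = 0.00380), Pcdha9 (0.56, SE 0.12, adjusted p = 0.0151) and Pcdhac2 (0.38, SE 0.11, adjusted p = 0.0357). Pcdha4 was under 1 FPKM by its own exon in both corticotrope libraries and passed the filter through melanotropes alone. Pcdha12 stood at -0.30 (adjusted p = 0.0526). Without rescaling 1 was called higher (Pcdha4) and 1 lower (Pcdha12). Pcdha4 alone was called higher without corticotrope replicate 2. Without a melanotrope replicate Pcdha4 was not tested, and of the 5 isoforms that were, Pcdha9 alone was called without replicate 1 and 0 without replicate 2.

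**Figure D2:**
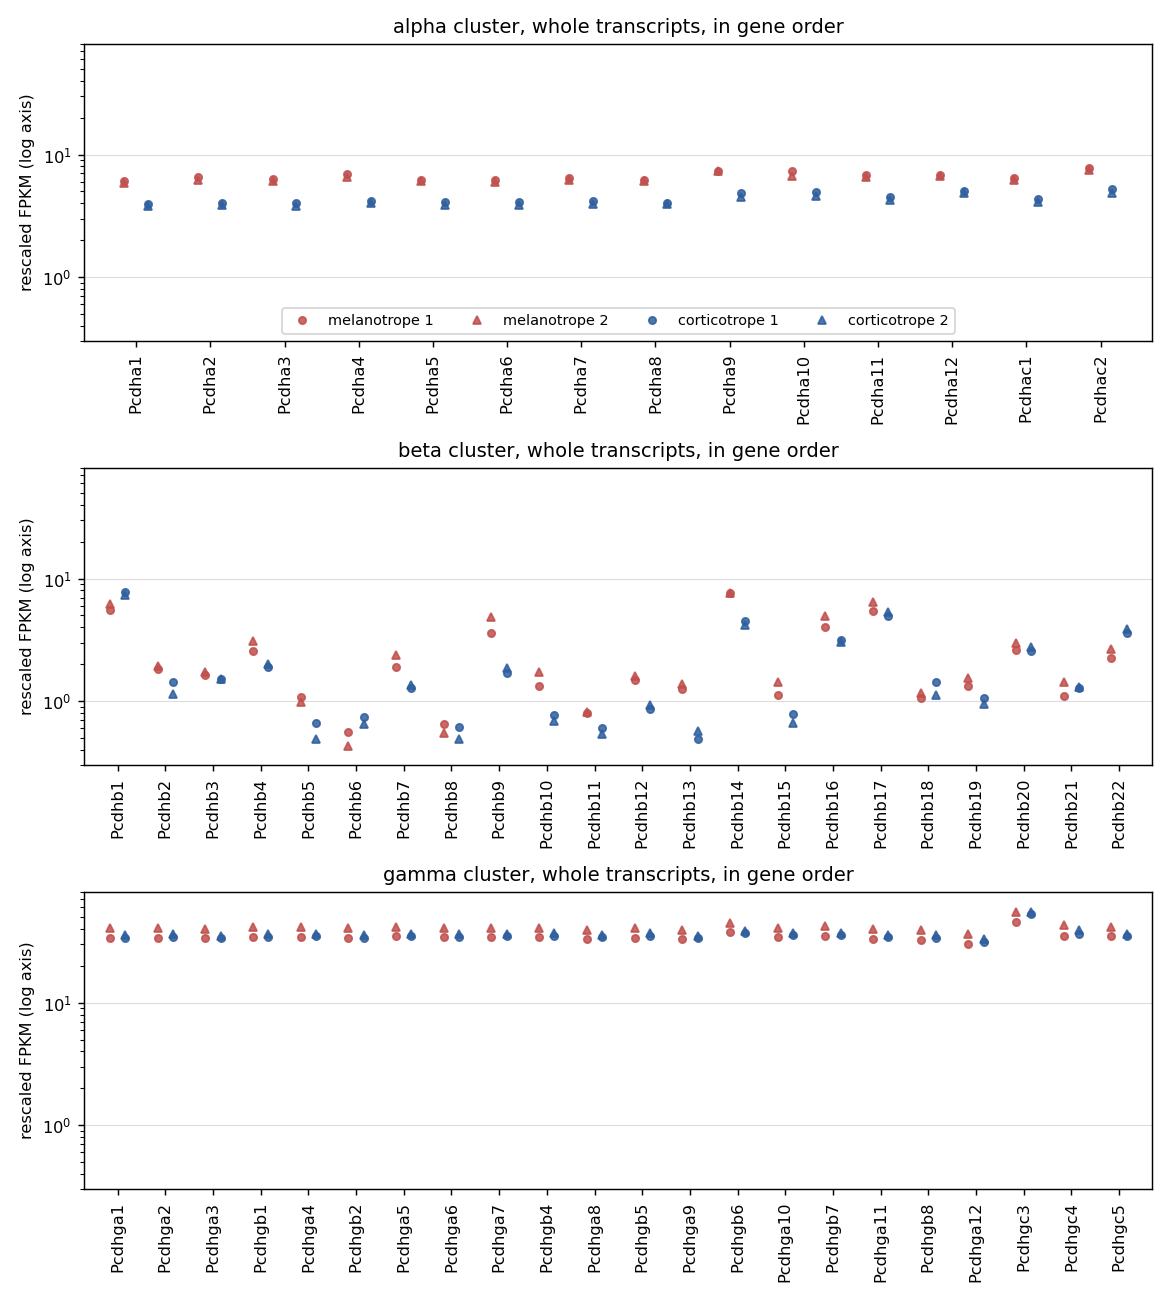
Rescaled FPKM of all 58 members in each library (log axis), in gene order, with circles for replicate 1, triangles for replicate 2, melanotropes in red and corticotropes in blue. Alpha members run at 5.88 to 7.71 in melanotropes and 3.79 to 5.24 in corticotropes, beta members range from 0.428 to 7.70 over the 4 libraries, and gamma members lie at 29.97 and above.

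The beta genes have no shared exon and give 1 value each. They share up to 12.0% of their 50-base stretches with another member (median 3.65%), so that reads could be split between copies. Beta means ranged from 0.494 to 7.66 FPKM in melanotropes and from 0.530 to 7.54 FPKM in corticotropes. The highest member thus exceeded the lowest by 15.5 and 14.2 times. At these levels a member rested on 190 to 5064 implied reads in a library. Mean levels were higher in melanotropes for 17 of the 22 genes and lower for 5, and the libraries did not overlap in 15 higher and 3 lower, beside the 35.7% and 35.4% of all genes. Pcdhb5, Pcdhb6, Pcdhb8 and Pcdhb11 did not pass the filter and lay at 1.09 FPKM or below in every library.

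Pcdhb14 and Pcdhb9, isoforms from the middle of the cluster, were the beta members called higher in melanotropes without any 1 library. Pcdhb14 was the highest beta member of melanotropes, at 7.64 and 7.68 FPKM, against 4.49 and 4.15 FPKM in corticotropes (log2 fold change 0.70, SE 0.08, adjusted p = 0.00168, limma). Pcdhb9 was at 3.61 and 4.83 FPKM in melanotropes and 1.69 and 1.87 FPKM in corticotropes (log2 fold change 0.90, SE 0.13, adjusted p = 0.00393, limma). In both genes every melanotrope library lay above every corticotrope library, with means 1.77 and 2.37 times as high.

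Pcdhb13 and Pcdhb10 were lower-level members with comparable ratios. Pcdhb13 was at 1.25 and 1.37 FPKM in melanotropes and 0.488 and 0.571 FPKM in corticotropes, and Pcdhb10 at 1.34 and 1.72 FPKM against 0.769 and 0.684 FPKM. Their log2 fold changes of 0.59 and 0.55 (adjusted p = 0.00593 and 0.0137, limma) are held down by the pseudocount of 1, and with 0.1 they were 1.16 and 0.97. They belong to 4 of the 9 genes called higher whose corticotrope libraries were both under 1 FPKM, so that the filter let them in through melanotropes alone, and a count over the genes that passed is no measure of the cluster. Neither was tested without a melanotrope replicate, and Pcdhb10 was not called without corticotrope replicate 2.

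Pcdhb1 and Pcdhb22, at either end of the cluster, were the members called lower in melanotropes. Pcdhb1, whose promoter lacks the CTCF-bound element common to the family, was at 5.49 and 6.16 FPKM in melanotropes and 7.70 and 7.37 FPKM in corticotropes (log2 fold change -0.32, SE 0.09, adjusted p = 0.0334, limma). It made up 10.8% and 10.6% of the beta sum in melanotropes and 17.7% and 17.2% in corticotropes, where it was the highest member. Pcdhb22 was at 2.26 and 2.68 FPKM in melanotropes and 3.59 and 3.87 FPKM in corticotropes (log2 fold change -0.45, SE 0.10, adjusted p = 0.0179, limma). Neither gene's libraries overlapped between the cell types.

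Between those ends, Pcdhb16 was called higher at 3.99 and 4.98 FPKM in melanotropes and 3.13 and 3.05 FPKM in corticotropes (adjusted p = 0.0319, limma), and it was not called without rescaling. Pcdhb17, the neighbour of Pcdhb16 and among the 4 highest beta members, was at 5.43 and 6.47 FPKM in melanotropes and 4.93 and 5.36 FPKM in corticotropes (adjusted p = 0.242, limma). Its libraries did not overlap between the cell types but lay close together. Along the cluster, all 9 genes called higher lay among the 15 from Pcdhb2 to Pcdhb16, of which 11 were tested, and the 6 from Pcdhb17 to Pcdhb22 held 0 higher and 1 lower. That division was made after the values had been seen and is a description, beside 18.9% of all genes tested called higher and 18.3% lower. Leaving out any 1 library left 1 library in that cell type and lowered the calls in both directions, in the beta cluster as over all genes tested. Without either melanotrope replicate 14 beta members were tested, against 18 with all libraries. Pcdhb1, Pcdhb4, Pcdhb12 and Pcdhb15 were not called in any of those fits, and Pcdhb7 and Pcdhb16 were called without melanotrope replicate 1 alone. Pcdhb22 was not called without corticotrope replicate 2 or melanotrope replicate 1.

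The gamma cluster stood far above the alpha cluster in the bound on its shared exons, and less far above the beta sums. Those sums were 50.7 and 57.8 FPKM in melanotropes and 43.4 and 42.8 FPKM in corticotropes. The gamma bound was set by Pcdhgb8 in melanotropes and Pcdhga1 in corticotropes. It was 71.5 and 86.2 FPKM in melanotropes and 72.9 and 77.0 FPKM in corticotropes. That is 6.42 and 7.98 times the alpha bound in melanotropes, against 10.1 and 11.1 times in corticotropes. The gamma bound overlapped between the cell types (ratio 1.05), and melanotrope replicate 2 was the highest of the 4 libraries.

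As whole transcripts 0 of 22 gamma members were called in either direction (limma), and 0 also at an unadjusted p under 0.05. Pcdhgc3, a C-type isoform and the highest member of the family, was at 45.3 and 54.7 FPKM in melanotropes and 53.4 and 54.9 FPKM in corticotropes (log2 fold change -0.12, SE 0.11, adjusted p = 0.422, limma). Pcdhgb6, the next, was at 37.6 and 44.7 FPKM in melanotropes and 37.2 and 38.7 FPKM in corticotropes. Every gamma member overlapped between the cell types.

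Pcdhgc4, the C-type isoform between the other two, was at 35.2 and 43.4 FPKM in melanotropes and 36.2 and 38.9 FPKM in corticotropes, and Pcdhgc5 at 35.0 and 41.3 against 35.4 and 36.5 FPKM. Pcdhgb7 was at 34.9 and 42.0 FPKM in melanotropes and 35.7 and 37.3 FPKM in corticotropes. In each of these the span between the melanotrope replicates covered the corticotrope values. The transcripts Pcdha4-g, Pcdha6-g and Pcdha7-g, which the rule leaves out, are annotated as an alpha exon joined to the gamma constant exons, and they stood at 32.5 to 39.9 FPKM in melanotropes and 33.1 to 35.2 FPKM in corticotropes, close to the gamma members.

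The own exons of the gamma cluster differed between isoforms by far more than the whole transcripts did. Pcdhgc3 was the leading isoform of both cell types, at 23.8 and 28.9 FPKM in melanotropes, against 37.4 and 36.8 FPKM in corticotropes. It accounted for 28.9% and 32.5% of the gamma own-exon sum in melanotropes and for 40.02% and 43.9% in corticotropes. Both its level and its share were lower in both melanotrope libraries. The own-exon sums themselves were 82.6 and 88.8 FPKM in melanotropes and 93.5 and 83.7 FPKM in corticotropes and overlapped. In each library they exceeded the gamma bound on the shared exons, so that here too own-exon levels are not levels of spliced isoforms.

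After Pcdhgc3 came Pcdhgc4, with own-exon levels of 8.82 and 12.4 FPKM in melanotropes and 9.44 and 11.3 FPKM in corticotropes, and Pcdhgb6, with 9.81 and 10.7 FPKM in melanotropes and 7.71 and 7.28 FPKM in corticotropes. Pcdhgc5 followed at 5.33 and 4.83 FPKM in melanotropes and 4.71 and 3.46 FPKM in corticotropes. Of these, Pcdhgb6 and Pcdhgc5 were higher in both melanotrope libraries and Pcdhgc4 overlapped. Pcdhgb7 was at 2.93 and 3.42 FPKM in melanotropes and 3.11 and 2.57 FPKM in corticotropes and overlapped as well. The 4 leading isoforms were thus the 3 C-types and Pcdhgb6, and all other gamma isoforms stood at 3.93 FPKM or below by their own exons in every library.

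**Figure D3:**
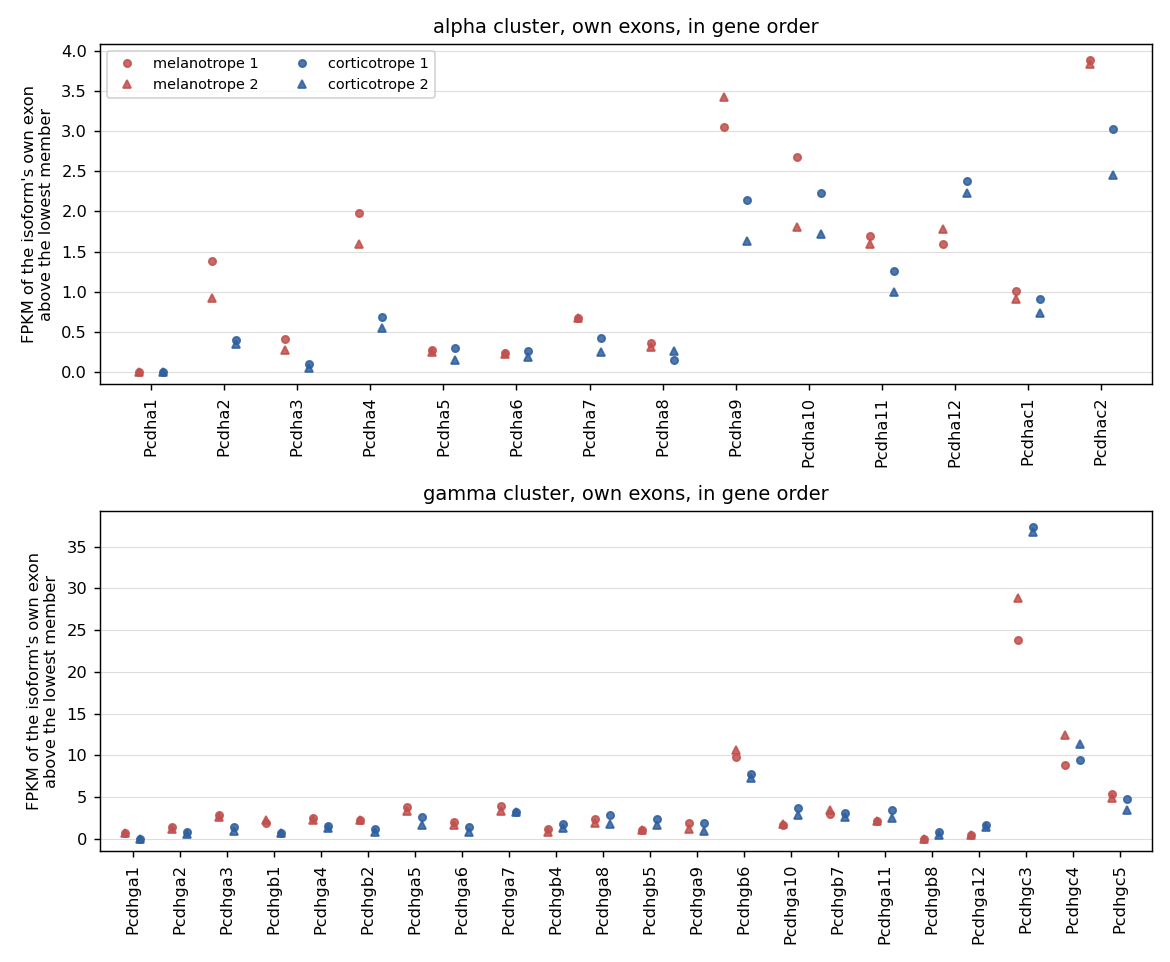
Own-exon level of each alpha (top) and gamma (bottom) isoform above the lowest member of its cluster, in FPKM, in gene order and per library, with melanotropes in red and corticotropes in blue. Pcdhac2 leads the alpha cluster, followed by Pcdha9 in melanotropes and by Pcdha12 in corticotropes, and Pcdhgc3 leads the gamma cluster, at 23.8 and 28.9 in melanotropes and 37.4 and 36.8 in corticotropes; the lowest member of each library is at 0 by construction.

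In the fit on own-exon levels 20 gamma isoforms passed the filter, with 7 called higher (Pcdhga2, Pcdhga3, Pcdhga4, Pcdhga5, Pcdhgb1, Pcdhgb2 and Pcdhgb6) and 4 lower in melanotropes (Pcdhga10, Pcdhga12, Pcdhgb5 and Pcdhgc3), beside 18.9% higher and 18.3% lower over all genes of that fit. Of these 11, 3 passed the filter through the cell type in which they were higher alone, Pcdhga2 and Pcdhgb1 through melanotropes and Pcdhga12 through corticotropes. Because the lowest member differed between the cell types, the bound was also taken from Pcdhga1 in all libraries, which gave 3 higher and 6 lower, and from Pcdhgb8, which gave 11 higher and 2 lower. Under all 3 bounds 3 were called higher and 2 lower, and 3 more were tested and not called in any. Pcdhgb1 had own-exon levels of 1.90 and 2.20 FPKM in melanotropes and 0.691 and 0.621 FPKM in corticotropes (log2 fold change 0.88, SE 0.10, adjusted p = 0.00157, limma; 0.53 to 1.47 over the bounds). Pcdhga3 had 2.82 and 2.62 FPKM in melanotropes and 1.37 and 0.933 FPKM in corticotropes (log2 fold change 0.80, SE 0.13, adjusted p = 0.005002, limma; 0.54 to 1.25 over the bounds). Pcdhgb6 changed by 0.40 on the log2 scale (SE 0.08, adjusted p = 0.0136, limma; 0.32 to 0.51).

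Lower under all 3 bounds were Pcdhgc3 and Pcdhga10. By its own exon Pcdhgc3 stood at -0.48 on the log2 scale (SE 0.10, adjusted p = 0.0156, limma; -0.52 to -0.46 over the bounds). Pcdhga10 was at 1.68 and 1.73 FPKM in melanotropes and 3.72 and 2.82 FPKM in corticotropes (log2 fold change -0.65, SE 0.12, adjusted p = 0.0102, limma; -1.04 to -0.43). Without rescaling Pcdhgb6 had a log2 fold change of -0.03 and was not called, while Pcdhga3, Pcdhgb1, Pcdhga10 and Pcdhgc3 kept their calls, within 3 higher and 7 lower in the cluster. Leaving out 1 library, Pcdhga3 and Pcdhga10 were called each time, Pcdhgc3 was not called without corticotrope replicate 1 (adjusted p = 0.0542) or melanotrope replicate 1 (adjusted p = 0.0528, limma; range over the libraries left out 0.00777 to 0.0542), Pcdhgb6 not without melanotrope replicate 2, and Pcdhgb1 did not pass the filter without either melanotrope replicate. Pcdhgb1 and other B-type isoforms share up to 17.9% of their 50-base stretches with another member, so that reads could be split between copies. In Pcdhgc3, Pcdhgc4 and Pcdhgc5, as in Pcdhac1 and Pcdhac2, 0 such stretches were shared.

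Along the gamma cluster the differences followed the order of the genes in part. Pcdhga1 and Pcdhgb8, the subtracted members, are at 0 in one cell type by construction and were left out here. All 7 A- and B-type isoforms from Pcdhga2 to Pcdhga6 had own-exon levels that were higher in both melanotrope libraries, by 0.664 to 1.57 FPKM between means. Of the 10 from Pcdhga7 to Pcdhga12, 2 were higher in both melanotrope libraries, 5 lower in both and 3 overlapping, with a median difference of -0.38 FPKM. Over all genes tested 35.7% were higher in both melanotrope libraries and 35.4% lower in both. Across these 17 isoforms the difference correlated with the order at r = -0.56, where the isoforms share libraries and a subtracted bound and are not independent. The split was chosen after the values were seen. Over the bounds under which each was tested, the sign of the log2 fold change turned for 4 of the 17 (Pcdhga7, Pcdhga8, Pcdhga9 and Pcdhgb7).

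**Figure D4:**
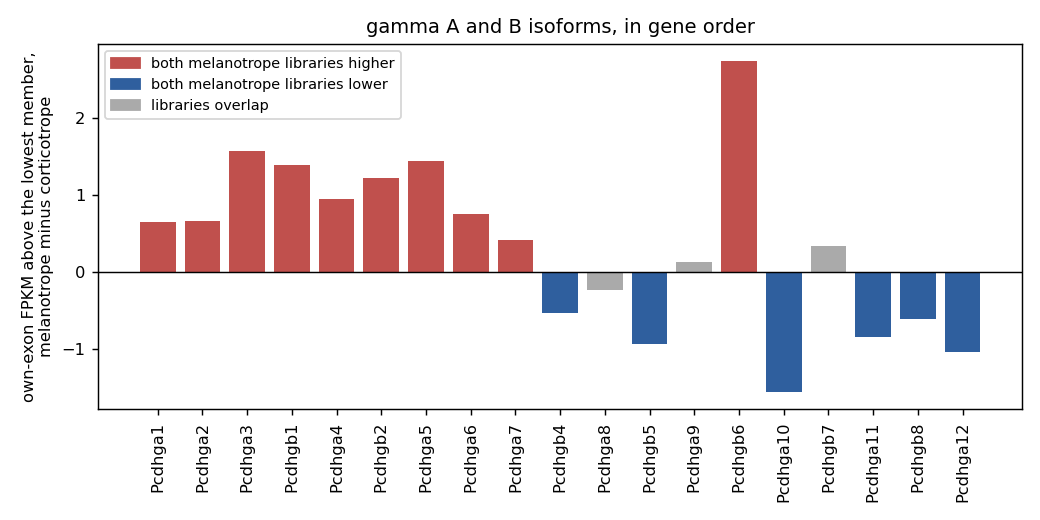
Difference in own-exon level, melanotrope mean minus corticotrope mean in FPKM, for the 19 gamma A- and B-type isoforms in gene order; red bars mark isoforms higher in both melanotrope libraries, blue bars lower in both, grey bars overlapping. Bars from Pcdhga2 to Pcdhga6 lie between 0.664 and 1.57, and the later ones reach from -1.56 (Pcdhga10) to 2.75 (Pcdhgb6); the signs of Pcdhga1 and Pcdhgb8 are fixed by the subtraction, and another choice of lowest member would move all bars up or all down.

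Of 24 genes tested in the list of promoter choice and silencing (26 of 27 in the table), 1 was called higher and 3 lower in melanotropes, with a median log2 fold change of -0.04, beside 18.9% higher and 18.3% lower over all genes. Ctcf, the insulator protein that joins promoter and enhancer at these clusters, was at 16.5 and 15.9 FPKM in melanotropes and 17.2 and 14.9 FPKM in corticotropes (adjusted p = 0.939, limma). Smchd1, a structural protein involved in silencing of the clusters, was at 16.4 and 16.5 FPKM in melanotropes and 15.5 and 16.2 FPKM in corticotropes (adjusted p = 0.631, limma). The means of each lay within 1 FPKM of each other, and without rescaling both had a log2 fold change below 0 with a call, as the median gene moved too.

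The member called higher was Dnmt1, the maintenance DNA methyltransferase, at 32.6 and 31.8 FPKM in melanotropes and 22.2 and 20.98 FPKM in corticotropes (log2 fold change 0.56, SE 0.07, adjusted p = 0.00249, limma). It was not called without rescaling. Dnmt3b, the methyltransferase that sets methylation on protocadherin promoters in the embryo, did not pass the filter, at 0.686 and 0.684 FPKM in melanotropes and 0.711 and 0.571 FPKM in corticotropes. Pds5b, a regulator of cohesin, was lower at 8.85 and 9.43 FPKM in melanotropes and 13.9 and 12.9 FPKM in corticotropes (adjusted p = 0.00521, limma). Atf7ip, a partner of the histone methyltransferase Setdb1, was lower at 8.82 and 8.29 against 13.4 and 12.4 FPKM, and Tet1, which oxidises methylcytosine, at 1.92 and 1.86 against 3.52 and 2.94 FPKM. Tet1 was not called without melanotrope replicate 2.

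Among 20 genes of binding partners and signalling, all tested, 4 were called higher and 4 lower in melanotropes (median log2 fold change -0.02). Over all genes 37.2% were called, so that the share in this list is near the background. Nlgn1 passed the filter through melanotropes alone and Ret through corticotropes alone, and neither was tested when a library of that cell type was left out. Marcks, a membrane-bound substrate of protein kinase C, was at 14.2 and 15.6 FPKM in melanotropes and 5.91 and 7.06 FPKM in corticotropes (log2 fold change 1.09, SE 0.10, adjusted p = 7.94e-04, limma). The synaptic adhesion gene Nlgn1 was at 2.402 and 3.38 FPKM in melanotropes and 0.637 and 0.909 FPKM in corticotropes. Ptk2, the focal adhesion kinase, was at 16.2 and 15.9 FPKM in melanotropes and 13.0 and 12.4 FPKM in corticotropes, and it was not called without corticotrope replicate 2 or either melanotrope replicate. In all 3 the melanotrope libraries lay above the corticotrope ones.

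Its relative Ptk2b, also known as Pyk2, went the other way, at 16.6 and 18.3 FPKM in melanotropes and 32.5 and 34.8 FPKM in corticotropes (log2 fold change -0.91, SE 0.08, adjusted p = 7.10e-04, limma). Both kinases bind the constant part of alpha and gamma protocadherins and lose activity by it. Ret, a receptor kinase found in complex with them, was at 0.0343 and 0.0489 FPKM in melanotropes and 1.42 and 1.25 FPKM in corticotropes. Abi1, of the WAVE complex of actin assembly, was at 14.7 and 14.7 FPKM in melanotropes and 17.6 and 20.3 FPKM in corticotropes, and it was not called without corticotrope replicate 2 or either melanotrope replicate. All 3 were lower in both melanotrope libraries.

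Protocadherins are cut by Adam10 and then by gamma-secretase, and of 8 genes of this cleavage 2 were called higher and 0 lower in melanotropes (limma; median log2 fold change 0.12), a share of higher calls near the 18.9% of all genes. Psen2, a catalytic subunit of gamma-secretase, was at 42.4 and 48.3 FPKM in melanotropes and 24.6 and 30.3 FPKM in corticotropes (log2 fold change 0.71, adjusted p = 0.00718, limma), and it was not called without rescaling. Aph1b, another subunit, was at 10.4 and 10.2 FPKM in melanotropes and 5.77 and 5.18 FPKM in corticotropes (log2 fold change 0.80, adjusted p = 0.00113, limma). Both had melanotrope libraries above corticotrope ones. The other 6 genes, Adam10 among them, were not called.

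In the authors' deposited table all 58 members had an FDR of 1. The share over all rows is not given here, so that count cannot be read as a trait of this family. Log2 fold changes ran from -0.79 to 1.02 (a positive value means higher in melanotropes). Medians were 0.63 in alpha, 0.21 in beta and 0.07 in gamma, beside 0 over all rows. Many members held identical values, such as 0.63 in Pcdha1, Pcdha2 and Pcdha3. The order of the 3 clusters was the one found above, but it comes from the same FPKM and is no separate support.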

How the data were processed

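The authors deposited FPKM values, 1 per RefSeq transcript and library, which the file headers trace to HOMER's analyzeRepeats (exon counts, mm10). The columns of the authors for log2 fold change, p-value and fold were made by HOMER's getDiffExpression from those FPKM, per the file headers, and the first 2 were used only where the authors' deposited table is named. The submitters' processing notes name TopHat, HOMER, edgeR, GRCm38 and mm10. Tool versions, the strand setting and the placement of reads with several matches are details not given in the sources used here.

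Columns were divided by factors from an unweighted trimmed mean of M values (0.874 and 0.819 for melanotropes, 1.21 and 1.16 for corticotropes), trimming 30% of M and 5% of A. Each gene was its longest transcript. Genes with at least 1 rescaled FPKM in at least 2 libraries, 13046 in number, were fitted with limma 3.58.1 in R 4.3.3 (trend, two-sided, Benjamini-Hochberg, threshold 0.05) on log2(FPKM + 1), a scale on which low genes change less. The model held cell type alone. The fit was also run on simulated data with independent errors and changes larger than those of any member in the main fit. That run is therefore no check on the calls of the members.

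Own-exon levels were FPKM times length minus the lowest member's, divided by the own exon's length. Shared exons (2854 bases in most alpha and 2112 in most gamma members) were measured from deposited transcript lengths and the first exons of GENCODE M21 on GRCm38. Stretches of 50 bases shared between members were counted in GENCODE transcripts for 57 members. Implied reads came from the spacing of low FPKM values, which fell on whole steps (within 0.1 read beyond rounding) in 100% of the values used. Reads per unit of FPKM times kilobase were 219 and 234.4 in melanotropes and 115.1 and 230.4 in corticotropes. Counts of reads cover counting error only.

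Named were the 4 highest members of each cluster, up to 4 called per direction with the largest change, the C-type isoforms, and from each related list up to 3 called per direction with the smallest adjusted p, besides Ctcf, Dnmt3b and Smchd1. Other members were named after their values were seen. Members and lists were chosen with earlier results of these data known. Alternatives were other scalings, pseudocounts of 0.1 and 5, other filters and transcripts, no trend, a replicate block, each library left out and, added after seeing the data, own-exon levels.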

Additional observations from a re-analysis of the deposited data

How the results depend on the processing

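Without rescaling, all genes had 939 higher and 8787 lower, alpha 0 higher, beta 4 higher and 5 lower, gamma 22 lower and the related genes 3 higher and 42 lower (7 and 7 when rescaled). Summed levels then had log2 ratios of 0.13 (alpha, 0.62 when rescaled), -0.15 (beta, 0.33) and -0.42 (gamma, 0.06). Signs turned there for Pcdha12 (-0.023), Pcdhb17 (-0.23), Pcdhgb6 (-0.36), Pcdhgb7 (-0.40), Pcdhgc4 (-0.41), Pcdhgc5 (-0.39), Ctcf (-0.44), Smchd1 (-0.41) and Ptk2 (-0.13). With no filter, 1522 of all genes, 3 beta members and 4 related genes were higher, and 0 beta members lower. With all transcripts, 3816 were higher and 3782 lower, 15 and 17 among related genes. On own exons, 3 alpha members were higher and Pcdha12 turned to -0.30, and gamma had 7 higher and 4 lower (3 and 6 with Pcdhga1, 11 and 2 with Pcdhgb8). Own exons without rescaling gave alpha 1 higher and 1 lower and gamma 3 and 7. With shared exons left in, Pcdhac2 made up 8.30% of the alpha sum in melanotropes and 8.43% in corticotropes, and Pcdhgc3 5.97% and 6.77% of the gamma sum, against 20.99% and 21.3%, and 30.7% and 42.0%, by own exons.

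Leaving out 1 library gave 1358 to 1809 higher and 1438 to 1670 lower over all genes, 12 to 14 higher alpha members, 2 to 4 higher and 0 to 1 lower beta members, 0 gamma members, and 4 to 7 higher and 4 to 7 lower related genes. Own exons then gave 0 to 3 higher alpha (Pcdha4 was not tested without a melanotrope library), and 2 to 9 higher and 1 to 4 lower gamma members. Replicates share only a number in the labels (deviations of same-numbered libraries correlated at 0.525 across genes). With the replicate number as a block, alpha had 14 higher, beta 11 higher and 2 lower, gamma 0, and related genes 11 higher and 14 lower. On own exons with the block alpha had 4 higher and 1 lower, and gamma had 9 higher and 6 lower. The causes of these shifts were not tested. The other alternatives left each count within 1.5 times. Corticotrope replicate 1 was the shallowest library, and 2 libraries per cell type limit every call.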
